A study of Homo sapiens with 8 samples.

Results

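The expression of 52 nuclear genes that encode subunits of the mitochondrial respiratory chain and of ATP synthase was analyzed in lung cancer cells. They are 52 of the 16557 named genes on the array. A gene was included when an array probe carried the accession of a listed subunit, under its current or an older symbol. The rule uses no measured value, but the list was drawn up with earlier results of these data known. The list holds 25 genes of complex I, 4 of complex II, 7 of complex III, 10 of complex IV and 6 of complex V. COXFA4L3, formerly C15orf48, is counted with complex IV. The genes of complex II encode all of its subunits, whereas some subunits of complexes I, III, IV and V are encoded by mitochondrial DNA or belong to another list described further on.

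Arrays of the whole human genome with 2 colors, 8 in all, compared CSCs (H460C) and cisplatin-resistant cells (H460R) with the H460 line they were derived from, a human non-small-cell lung cancer (NSCLC) line. H460C cells had been derived from H460 cells in defined DMEM/F12 medium with N2 supplement, EGF and bFGF, without attachment. H460R cells had received cisplatin at 0.5 μg/mL during 72 h, were then kept free of the drug, and shared with H460 cells the medium, RPMI with serum. Each population had 2 RNA samples, hybridized on 2 arrays each with the dyes swapped, and the labels name a single H460 RNA. No source used here says that the replicates came from separate cultures, so the p-values measure the spread between these samples, which may be technical. Medium, attachment and population cannot be told apart in H460C, and the same holds for the slide, since each population was hybridized on its own.

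The respiratory chain passes electrons from NADH (complex I) or succinate (complex II) through ubiquinone, complex III and cytochrome c to oxygen at complex IV. Complexes I, III and IV pump protons, and complex V (ATP synthase) uses the proton gradient to make ATP. Tumor cells keep this machinery beside glycolysis, and its nuclear genes are transcribed in nearly every cell type.

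Each value below is a log2 ratio over H460 cells, the mean of a dye-swap pair, and is 0 when both cell types had the same signal. The difference between the H460C replicates did not recur when the dyes were swapped (r = -0.0106 over 24642 probes), and both ratios were counted as 1 sample, given without SD. The same correlation was 0.268 for H460R over 25745 probes. H460R values are mean ± SD (n = 2). Rank Products, which compares ranks of ratios and still took both H460C ratios as 2 samples, and limma, which tests the ratio against 0, were both fitted on all probes with an FDR of 0.05. Neither includes the spread of the H460 RNA. All 52 genes passed the filter on dim probes. In 9 of them the probe read had saturated spots on some arrays (ATP5F1A, COX5B, COX7A2, COX7C, NDUFA8, NDUFC1, NDUFS5, UQCRH and UQCRQ), which compresses a ratio. Saturation is given below as the number of array channels, of both dyes, in which the probe was saturated. In 42 genes a ratio was obtained on all 8 arrays.

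Transcripts of respiratory chain subunits were mostly higher in cisplatin-resistant cells than in H460 cells, with complex IV at the top, whereas in CSCs they were divided. The median of the 52 genes was 0.12 in H460C and 0.42 in H460R, against -0.0017 and 0.0024 for all 12346 genes tested. The replicates gave medians of 0.12 and 0.10 in H460C and of 0.39 and 0.43 in H460R. In the authors' processed table the same medians were 0.016 in H460C and 0.37 in H460R, so the H460C shift was smaller there. The medians of all probes in that table were also lower, -0.0325 in H460C and -0.0275 in H460R. In H460R, 37 genes (71.2%) were higher by limma, where 35.6% of all genes were, and 4 (7.69%) were lower, where 32.9% of all genes were. In H460C, 22 genes (42.3%) were higher, against 31.1% of all genes, and 9 (17.3%) were lower, against 28.5%. The share of higher genes among those called in H460C was 71.0%, where 3843 of all genes were called higher and 3521 lower. It was 95.0% when arrays were centered on their median instead of loess. That centering also moved the H460C median of all probes, from 0.0029 to 0.081.

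**Figure D1:**
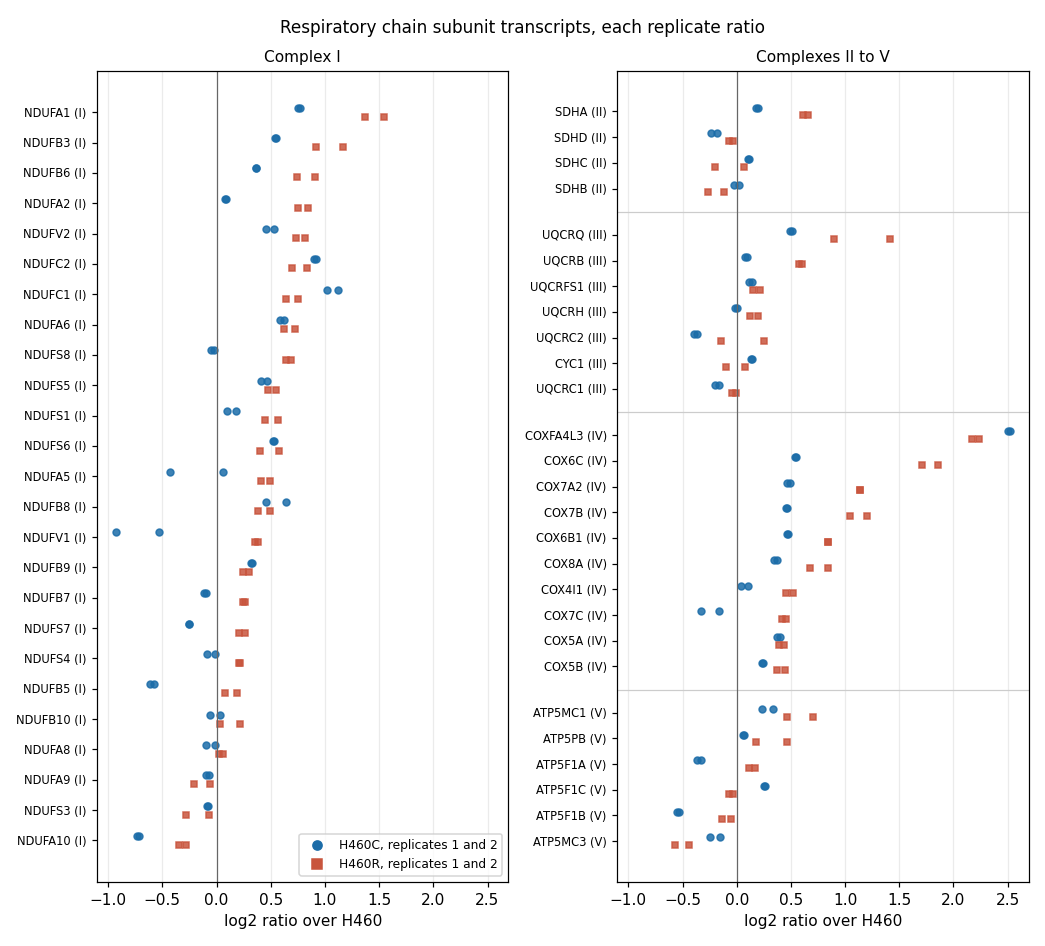
Log2 ratio over H460 (horizontal axis) of each of the 52 subunit genes, with complex I on the left and complexes II to V on the right. Circles are the 2 H460C replicate ratios and squares the 2 H460R replicate ratios; genes are sorted by H460R within a complex. COXFA4L3 stands apart in both populations (2.51 and 2.20), and COX6C (1.79) and NDUFA1 (1.46) follow it in H460R.

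Rank Products called 1 gene higher in H460C, COXFA4L3, where 0.721% of all genes were called. It called 2 genes higher in H460R, COXFA4L3 and COX6C, where 0.575% were. It called 0 lower in either population, where 0.551% of all genes were called in H460C and 0.51% in H460R. At an unadjusted Rank Products p under 0.05, 2 genes were lower in H460C (NDUFA10 and NDUFV1) and 1 in H460R (ATP5MC3), where 10.7% and 8.76% of all genes were. At the same p, 4 were higher in H460C and 16 in H460R, where 10.9% and 9.31% of all genes were. By limma 9 were lower in H460C and 4 in H460R.

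COXFA4L3 encodes a small paralog of NDUFA4 that can take its place in complex IV. Its ratios were 2.51 and 2.52 in H460C, and 2.24 and 2.17 in H460R. All 4 were above the ratios of every other gene of the 52. The level was 5.71-fold that of H460 cells in CSCs (Rank Products FDR 0.0342) and 4.61-fold in resistant cells (2.20 ± 0.05, FDR 0.0108). It was the 62nd highest of the 12346 genes in H460C and the 20th highest in H460R. Each of the 8 arrays gave a ratio between 2.13 and 2.63. The Rank Products call was lost in both populations with the ratio of the scanner software, and in H460C with a normexp offset of 0. The difference between the populations was 0.31 (SE 0.10, limma adjusted p = 0.0330). Of its relatives, NDUFA4 (now COXFA4), the subunit of complex IV in most tissues, was not read here. NDUFA4L2 (now COXFA4L2), a paralog known as a hypoxia target, had ratios of 0.60 and 0.80 in H460C and of -0.28 and -0.27 in H460R. NDUFA4L2 was higher in H460C (limma adjusted p = 0.000198), but it passed the filter on dim probes only through H460C. For H460 it was well above background on 6 of the 8 arrays, so the call rests on a probe selected where it is high. It was not well above background on the H460R arrays, so its H460R ratios are only a bound.

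COX6C, a small structural subunit of complex IV, had ratios of 0.55 and 0.54 in H460C and of 1.86 and 1.71 in H460R. It was 1.46-fold higher in CSCs (limma adjusted p = 0.00126) and 3.45-fold higher in resistant cells (1.79 ± 0.11, Rank Products FDR 0.0369). The replicate 1 value of H460R rests on 1 array, because the spot on the other was marked as an outlier. With outlier spots kept, an alternative added after the data were seen, the mean was 1.66 and COX6C was no longer called by Rank Products, though limma still called it (adjusted p = 2e-06). The Rank Products call was also lost with the software's ratio, a normexp offset of 0, median centering and the Cy3 arrays alone. With the Cy5 arrays alone or all 4 arrays ranked singly COX6C could not be tested, because of the spot left out as an outlier.

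Complex IV, cytochrome c oxidase, had the highest median of the 5 complexes in both populations, 0.42 in H460C and 0.80 in H460R. All 10 of its genes were higher in H460R by limma. In H460C 8 were higher, 1 was lower and 1 was not called. Of all genes, 35.6% were higher in H460R, and 31.1% were higher and 28.5% lower in H460C. COX7A2 and COX7B, small membrane subunits, followed COX6C in H460R. COX7A2 had ratios of 0.49 and 0.46 in H460C and of 1.14 and 1.14 in H460R, with saturated spots in 4 channels. COX7B had 0.45 and 0.47 in H460C against 1.05 and 1.20 in H460R. Both genes were higher in H460R than in H460C by limma (adjusted p = 0.00106 and 0.00191). COX6B1, at 0.84 and 0.84 in H460R, and COX8A, at 0.68 and 0.84, lay in the middle. COX5B, which faces the matrix, was the lowest of the complex in H460R with 0.37 and 0.45 (0.41 ± 0.05, adjusted p = 0.000419), and had 0.23 and 0.24 in H460C (adjusted p = 0.0335). COX4I1, the isoform of subunit 4 in most tissues, was not called in H460C (0.07, adjusted p = 0.473) but was higher in H460R (0.48 ± 0.04, adjusted p = 0.000173), and both of its probes gave these calls.

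COX7C was the exception of the complex. Its ratios were -0.33 and -0.16 in H460C and 0.45 and 0.41 in H460R. It was lower in CSCs (adjusted p = 0.0273) and higher in resistant cells (adjusted p = 0.000279), and the difference between them was -0.68 (SE 0.09, adjusted p = 0.000998). Its only probe had saturated spots in 6 channels.

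**Figure D2:**
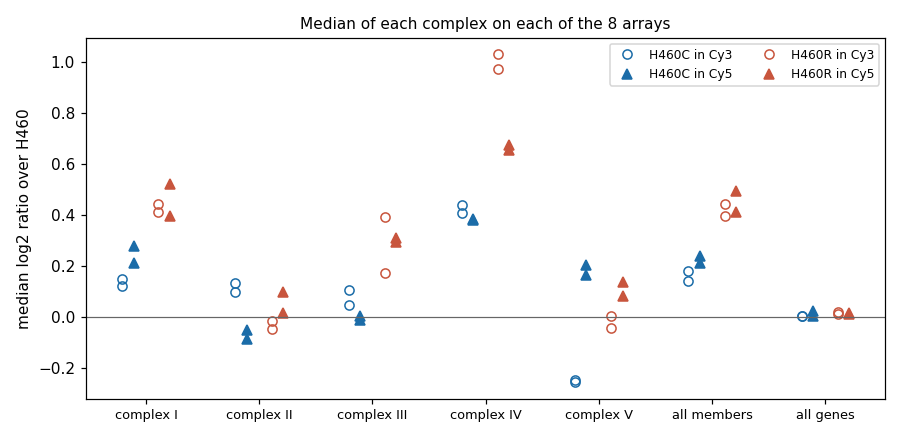
Median log2 ratio over H460 (vertical axis) of the genes of each complex, of all 52 genes and of all genes tested, on each of the 8 arrays. Open circles are arrays with the studied cells in Cy3 and filled triangles those with Cy5. Complex IV lies between 0.65 and 1.03 on the 4 H460R arrays, whereas complex V in H460C changes sign with the dye (-0.26 and -0.25 in Cy3, 0.16 and 0.20 in Cy5).

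To show what the transcribed regions carry upstream, the promoter windows of RefSeq (GRCh38.p14), from 250 bases before to 50 after the start, were searched on both strands for GCATGCGC (the core of the NRF1 motif), CCGGAAGT (an ETS site as bound by GABPA) and AAGATGGC (YY1). NRF1, GABPA and YY1 are factors known for the control of respiratory genes. Of the 52 genes, 42 had a window. The NRF1 letters were found in 9 of the 42 (21.4%), against 3.68% of 27305 genes with a window. The GABPA letters were found in 7 (16.7%), against 4.95%, and the YY1 letters in 8 (19.0%), against 3.52%. A match is a description and shows no binding. The genes with the NRF1 letters had a median of 0.23 in H460R and those without 0.48, so the genes with these letters were not those with the highest ratios. With the GABPA letters the medians were 0.41 and 0.44, and with the YY1 letters 0.22 and 0.49. Below are the 160 bases before the start of the gene with the highest ratio in both populations (COXFA4L3), of a high gene in H460R from complexes I, IV and III (NDUFA1, COX7B and UQCRQ), and of 2 genes with both NRF1 and GABPA letters, 1 higher in H460R (COX5B) and 1 not called there (SDHD). Capitals mark those letters on either strand, and all genes lie on the plus strand.
COXFA4L3, chr15:45430450-45430609: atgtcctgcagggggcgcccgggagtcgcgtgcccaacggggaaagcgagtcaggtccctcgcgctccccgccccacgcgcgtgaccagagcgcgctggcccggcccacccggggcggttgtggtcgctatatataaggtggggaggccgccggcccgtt
NDUFA1, chrX:119871672-119871831: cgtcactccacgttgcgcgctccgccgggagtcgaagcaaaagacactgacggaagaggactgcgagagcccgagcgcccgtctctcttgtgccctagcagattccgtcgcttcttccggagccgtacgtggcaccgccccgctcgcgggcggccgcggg
COX7B, chrX:77899308-77899467: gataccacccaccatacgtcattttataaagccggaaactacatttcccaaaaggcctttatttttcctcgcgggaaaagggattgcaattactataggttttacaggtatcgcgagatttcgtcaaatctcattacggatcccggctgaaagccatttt
UQCRQ, chr5:132866482-132866641: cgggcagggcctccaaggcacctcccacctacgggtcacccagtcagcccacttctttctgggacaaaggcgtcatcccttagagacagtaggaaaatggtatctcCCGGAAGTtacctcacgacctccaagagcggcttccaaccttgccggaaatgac
COX5B, chr2:97645902-97646061: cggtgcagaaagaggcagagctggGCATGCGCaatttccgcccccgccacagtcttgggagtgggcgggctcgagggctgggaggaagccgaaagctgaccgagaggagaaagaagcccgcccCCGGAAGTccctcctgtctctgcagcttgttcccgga
SDHD, chr11:112086713-112086872: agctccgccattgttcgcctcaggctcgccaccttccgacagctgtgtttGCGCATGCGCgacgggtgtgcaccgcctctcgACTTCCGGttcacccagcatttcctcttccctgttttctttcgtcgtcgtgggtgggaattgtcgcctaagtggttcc
COX5B holds another copy of the GABPA letters that runs across its start. The first 3 sequences held none of the searched letters, although their genes were among the highest in H460R, which says nothing of the factors.

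Complex I, the NADH dehydrogenase, was the largest group. Its median was 0.08 in H460C and 0.45 in H460R. In H460R, 19 of its 25 genes were higher, 2 were lower and 4 were not called, and in H460C 11 were higher, 4 were lower and 10 were not called. The shares of all genes were 35.6% higher and 32.9% lower in H460R, and 31.1% higher and 28.5% lower in H460C. NDUFA1, an accessory subunit of the membrane arm, led in H460R, with ratios of 0.75 and 0.77 in H460C and of 1.37 and 1.55 in H460R (1.46 ± 0.13, 2.75-fold, adjusted p = 3.28e-06). Its other probe gave 1.47. NDUFB3, another membrane arm subunit, reached 0.92 and 1.17 in H460R against 0.54 and 0.55 in H460C. Both genes were higher in H460R than in H460C by limma (adjusted p = 0.00180 and 0.0136).

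In CSCs the order was different. NDUFC1 had ratios of 1.02 and 1.12 in H460C and of 0.64 and 0.76 in H460R. NDUFC2, its neighbor in the membrane arm, had 0.90 and 0.92 in H460C and 0.69 and 0.83 in H460R. They were the highest of the 52 genes in H460C after COXFA4L3, at 2.09-fold and 1.88-fold (adjusted p = 4e-05 and 9.58e-05). NDUFC1 was higher in H460C than in H460R (difference 0.37, SE 0.10, adjusted p = 0.0198), with saturated spots in 2 channels and 1 of its H460C ratios resting on 1 array. The difference of NDUFC2 was not called (0.15, adjusted p = 0.286). Its other, dimmer probe gave 0.41 in H460C and 0.72 in H460R, a difference called the other way (-0.31, limma adjusted p = 0.0321). The place of NDUFC2 in H460C therefore depended on the probe.

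The lowest genes of H460C were also of complex I. NDUFV1 carries the site where NADH is oxidized. Its ratios were -0.53 and -0.93 in H460C and 0.35 and 0.39 in H460R, but it depended on the dye. With H460R in Cy3 the mean ratio was 0.84 and with H460R in Cy5 it was -0.10, so its direction in H460R is uncertain. The second H460C value rests on 1 array. Within each dye the H460C value was below that of H460R, with -0.13 against 0.84 in Cy3 and -0.93 against -0.10 in Cy5. The difference was -1.10 (SE 0.09, limma adjusted p = 0.000108). It is larger than within either dye, because the H460C mean holds more Cy5 than Cy3 arrays. NDUFA10, an accessory subunit of the membrane arm, was lower in both populations, with -0.72 and -0.74 in H460C and -0.35 and -0.28 in H460R (adjusted p = 0.000193 and 0.00160), and its second probe gave the same calls. NDUFB5 had -0.57 and -0.61 in H460C (adjusted p = 0.000644) and 0.08 and 0.19 in H460R, where it was not called (adjusted p = 0.0759).

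The 6 listed core subunits of complex I are NDUFS1, NDUFS3, NDUFS7, NDUFS8, NDUFV1 and NDUFV2, most of which hold its redox centers. They were set apart from the 19 accessory ones after the values were seen, as a description. Their median was -0.06 in H460C and 0.44 in H460R. The accessory genes had medians of 0.32 and 0.45. In H460C 1 core gene was higher and 2 were lower, whereas 10 accessory genes were higher and 2 were lower. The core genes that differed between the populations, 5 of 6, were all higher in H460R, where 24.9% of all genes were. NDUFS8, an iron-sulfur subunit, was one of them, with -0.02 and -0.05 in H460C and 0.68 and 0.64 in H460R, although both values varied with the dye (0.37 and -0.44 in H460C, 1.18 and 0.14 in H460R, for Cy3 and Cy5).

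NDUFA2 had 0.08 and 0.08 in H460C and 0.75 and 0.85 in H460R, and both of its probes gave nearly the same ratios. NDUFA5, NDUFA9 and NDUFB7 had probes that disagreed in direction in H460C. NDUFA5 was -0.19 at the probe read and 0.39 at the other, dimmer one. Its H460C ratios of 0.06 and -0.43 differ because the second rests on 1 array, with H460C in Cy3. By dye, NDUFA5 had -0.43 in H460C and 0.05 in H460R in Cy3, and 0.55 and 0.85 in Cy5. NDUFB7 was -0.11 and 0.12, and NDUFA9 -0.08 and 0.03, none of them called. NDUFA8, with saturated spots in 6 channels, was not called in either population (-0.06 and 0.04). NDUFS5, with saturated spots in 4 channels, was higher in both (0.44 and 0.51, adjusted p = 0.00231 and 0.000136).

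Complex II, succinate dehydrogenase, belongs to both the tricarboxylic acid cycle and the respiratory chain. Its median was 0.05 in H460C and -0.06 in H460R, the lowest of the 5 complexes in H460R. The sign in H460R turned with median centering (0.052), the Cy5 arrays alone (0.057), the mean over probes (0.0097) and without H460R replicate 1 (0.017), and with the Cy3 arrays alone complex V was lower (-0.042 against -0.031). The median in H460C turned to -0.005 in the authors' table and to -0.07 with the Cy5 arrays alone. SDHA, the flavoprotein, had 0.20 and 0.18 in H460C and 0.66 and 0.62 in H460R. It was higher in H460R (0.64 ± 0.03, adjusted p = 4.26e-05), and its second probe gave 0.19 there, also called. SDHB, the iron-sulfur subunit, had -0.27 and -0.11 in H460R (adjusted p = 0.0248), where it was 0.05 on the Cy5 arrays, and -0.03 and 0.02 in H460C. SDHD, a membrane anchor, was lower in H460C (-0.21, adjusted p = 0.0460) and not called in H460R (-0.05). Its 4 probes ranged from -0.21 to 0.13 in H460C and from -0.05 to 0.33 in H460R. SDHC, the other anchor, was not called in either population.

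Complex III, the cytochrome bc1 complex, had medians of 0.09 and 0.16. The H460C median was -0.0014 with outlier spots kept. UQCRQ, a small membrane subunit, had 0.50 and 0.51 in H460C and 1.41 and 0.90 in H460R (1.16 ± 0.36, adjusted p = 6.86e-05). It had the widest spread between H460R replicates of all 52 genes and saturated spots in 8 channels. UQCRB was also higher in H460R (0.58 and 0.60, adjusted p = 5.86e-05) and not in H460C (0.08 and 0.09, each on 1 array). UQCRC1 and UQCRC2, the large core proteins of the matrix side, were at the other end. UQCRC2 had -0.37 and -0.39 in H460C (adjusted p = 0.0377) and -0.14 and 0.25 in H460R. The first H460R value rests on the Cy3 array alone, and the second was -0.04 in Cy3 and 0.55 in Cy5. UQCRC1 had -0.02 ± 0.03 in H460R (adjusted p = 0.735). UQCRH, with saturated spots in 7 channels, had 0.16 ± 0.05 in H460R (adjusted p = 0.0337), a call that was lost on the Cy3 arrays (-0.02).

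The 6 listed genes of complex V, ATP synthase, were mixed. Their medians were -0.07 in H460C and 0.04 in H460R. The sign in H460C turned with median centering (0.05), a stricter filter (0.07), the brightest probe (0.07) and the Cy5 arrays alone (0.19). These medians hold for the listed genes only, since most ATP synthase genes of the other list described further on were higher in H460R. The listed genes of the catalytic head, ATP5F1A and ATP5F1B, were lower in CSCs. ATP5F1B, which bears the catalytic site, had -0.53 and -0.55 in H460C (adjusted p = 0.000906) and -0.14 and -0.05 in H460R (adjusted p = 0.164). ATP5F1A had -0.37 and -0.33 in H460C (adjusted p = 0.00628) and 0.17 and 0.11 in H460R (adjusted p = 0.0490), with saturated spots in 2 channels and both signs changed on the arrays of 1 dye. ATP5F1C, of the rotating stalk, was higher in CSCs, with 0.25 and 0.26 in H460C (adjusted p = 0.0236) and -0.07 and -0.03 in H460R. ATP5MC1, a gene of the membrane ring, was the highest of the complex (0.28 and 0.58, adjusted p = 0.0421 and 0.000232).

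ATP5MC3, another gene of the ring, depended on the probe. The probe read, a dim one without saturated spots, had -0.25 and -0.16 in H460C and -0.44 and -0.57 in H460R, the lowest value of the 52 genes there as read from this probe (-0.51 ± 0.09, adjusted p = 0.000192). The bright probe, saturated in 8 channels, had 0.37 in H460C replicate 1, no value in replicate 2, and 0.96 and 0.69 in H460R. Its direction is therefore uncertain.

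The dyes moved single genes in both populations. The mean ratios of the Cy3 and the Cy5 arrays had opposite signs in 18 of the 51 genes with both in H460C (35.3%, against 27.9% of all genes) and in 15 of 52 in H460R (28.8%, against 31.5%). Of the 31 genes called by limma in H460C 1 was among them, ATP5F1A, and 6 of the 41 called in H460R were (NDUFB7, NDUFS4, NDUFV1, SDHB, UQCRH and ATP5F1A). Opposite signs bring the mean of a dye pair toward 0, so such genes are less often called by construction. The median of all 52 genes lay between 0.39 and 0.49 on the 4 H460R arrays and between 0.14 and 0.24 on the 4 H460C arrays.

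Subunit genes are bright on the array, and brightness was compared with the ratios. The 17 genes with a mean log2 intensity over 14 had a median of 0.36 in H460C and 0.48 in H460R, and the 461 genes of that brightness among all tested had -0.06 and 0.06. The 22 genes between 12 and 14 had 0.13 and 0.50, against 0.06 and 0.07 for 1642 genes. The 10 genes between 10 and 12 had -0.0076 and 0.13, against -0.0045 and -0.0052 for 3171 genes. The 3 dimmest genes had -0.08 and -0.17. The shift of H460R was found in the brighter members and not in all genes of like brightness. Fewer or more cells of a type and less or more RNA per cell cannot be told apart in such samples.

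CSCs and resistant cells were then compared directly by limma. Of the 52 genes, 25 (48.1%) were higher in H460R than in H460C, where 24.9% of all genes were, and 4 (7.69%) were higher in H460C, where 25.5% of all genes were. The median difference was -0.29. The 25 genes were 13 of complex I, 1 of complex II, 2 of complex III, 7 of complex IV and 2 of complex V. The largest differences toward H460R were those of COX6C (-1.24, SE 0.10, adjusted p = 0.000102), NDUFV1 (-1.10), NDUFB5 (-0.72), NDUFA2 (-0.72) and NDUFA1 (-0.70). COX6C and NDUFV1 lacked a ratio on an array, so their differences are not balanced for the dye. The genes higher in H460C were NDUFC1 (0.37), COXFA4L3 (0.31), ATP5F1C (0.31) and ATP5MC3 (0.31). The last rests on the dim probe, whereas the bright one had a lower ratio in H460C than in H460R, and with the brightest probes, where ATP5MC3 could not be tested, 3 genes were higher in H460C. SDHB was next, and was not called (0.19, SE 0.10, adjusted p = 0.187). Median centering left 9 genes higher in H460R and 1 higher in H460C, so the number is uncertain though the side that held more genes was the same.

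**Figure D3:**
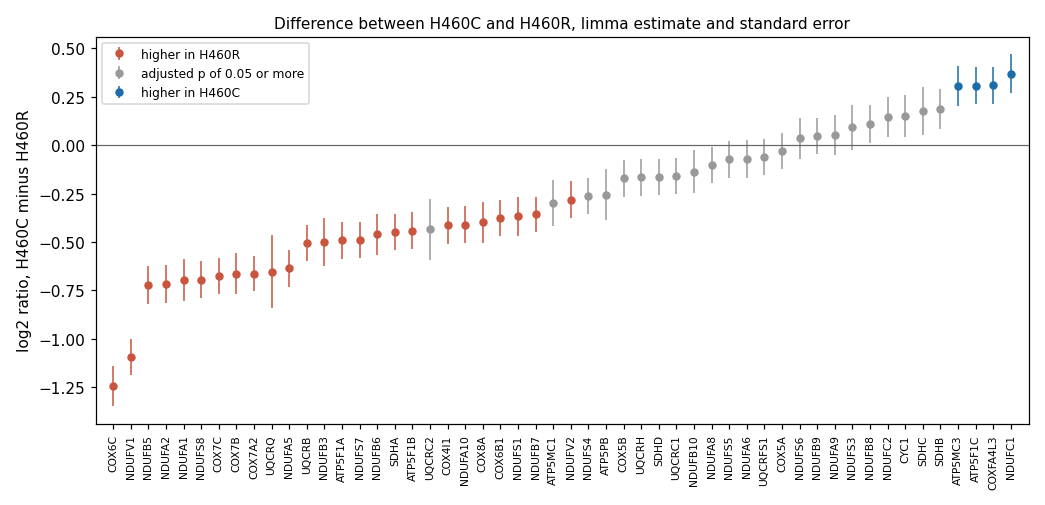
Difference of the log2 ratios, H460C minus H460R (vertical axis), for the 52 genes sorted by size. Points are limma estimates, bars are ± 1 standard error, and colors mark the genes with an adjusted p under 0.05. The 25 genes higher in H460R lie to the left, led by COX6C at -1.24, and the 4 genes higher in H460C lie to the right, up to NDUFC1 at 0.37.

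Both comparisons with H460 share the same H460 RNA, so calls made in both are not independent. The genes lower in H460C and higher in H460R were NDUFS7, NDUFV1, COX7C and ATP5F1A. NDUFS7, an iron-sulfur subunit, had -0.26 and -0.26 in H460C and 0.20 and 0.27 in H460R, and its second probe gave -0.56 and 0.02. NDUFV1 and ATP5F1A changed sign on the arrays of 1 dye in H460R, as given above, whereas NDUFS7 and COX7C had the same sign in all 18 alternatives of each population. The H460C calls of NDUFS7 and COX7C were nevertheless lost in 5 and 7 of these alternatives.

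The other genes of oxidative phosphorylation were read from a separate list of 36 subunits and isoforms, 31 of which were tested. Their median was 0.45 in H460C and 0.57 in H460R. In H460R 24 were higher and 5 lower, and in H460C 17 were higher and 5 lower. Of all genes, to be set beside this and the following lists, 35.6% were higher and 32.9% lower in H460R. In H460C these shares were 31.1% and 28.5%. ATP5F1E, the small epsilon subunit of the ATP synthase head, was the highest in both (1.17 and 1.39), unlike ATP5F1A and ATP5F1B of the same head. COX7A2L, which takes part in joining complexes III and IV, was the lowest in both (-0.59 and -0.64, adjusted p = 0.000556 and 4.92e-05).

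The 41 assembly factors tested, proteins that build the complexes without staying in them, had medians of 0.15 and 0.14. In H460C 17 were higher and 7 lower, and in H460R 20 were higher and 8 lower. COA6, a copper factor of complex IV, was the highest in H460C (1.33), with 0.90 in H460R. COX14, which acts on the synthesis of COX1, was the highest in H460R (1.17) and not called in H460C (0.22). SURF1, also of complex IV, was the lowest in H460C (-0.68) and not called in H460R (0.05). ECSIT, of complex I, was the lowest in H460R (-1.04), with -0.25 in H460C.

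The 14 mobile carriers and ubiquinone synthesis genes had medians of 0.03 and 0.0077. In H460C 5 were higher and 5 lower, and in H460R 6 were higher and 6 lower. CYCS (cytochrome c) was the highest in H460C (1.23, against 0.57 in H460R). ETFDH, which feeds electrons from fatty acid oxidation to ubiquinone, was the highest in H460R (1.18, against 0.25 in H460C). The lowest were COQ4 in H460C (-0.77) and COQ5 in H460R (-0.67), both of ubiquinone synthesis.

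The 21 genes of mitochondrial DNA expression and biogenesis had medians of 0.17 and -0.04. In H460C 8 were higher and 4 lower, and in H460R 5 were higher and 9 lower. PPARGC1A (PGC-1 alpha), a coactivator of respiratory genes, had -0.77 and -0.85 in H460C and 0.93 and 1.08 in H460R. It was the highest of this list in H460R, and differed between the populations by limma (difference -1.82, adjusted p = 1.9e-05). SLIRP, which stabilizes mitochondrial transcripts, was the highest in H460C (1.26), HIF1A the lowest in H460C (-1.18), and ESRRA, an estrogen-related receptor, the lowest in H460R (-0.78). The factors of the promoter motifs had ratios, in H460C and H460R, of -0.04 and -0.31 for NRF1 (not called and lower), 0.28 and 0.18 for GABPA, and 0.36 and 0.18 for YY1 (both higher in each population).

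The 22 genes of the tricarboxylic acid cycle and of pyruvate dehydrogenase had medians of 0.0034 and 0.21. In H460C 8 were higher and 6 lower, and in H460R 13 were higher and 2 lower. Rank Products called 1 of them, PDK4, a kinase that blocks pyruvate dehydrogenase. Its ratios were 2.34 and 2.35 in H460R (FDR 0.00660) and -0.38 and -0.47 in H460C. PDHA1, the subunit that PDK4 phosphorylates, was the highest in H460C (0.98, from ratios of 1.30 and 0.66). DLST was the lowest in H460C (-1.08) and was higher in H460R (0.34, adjusted p = 0.00159). IDH3A was the lowest in H460R (-0.22).

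**Figure D4:**
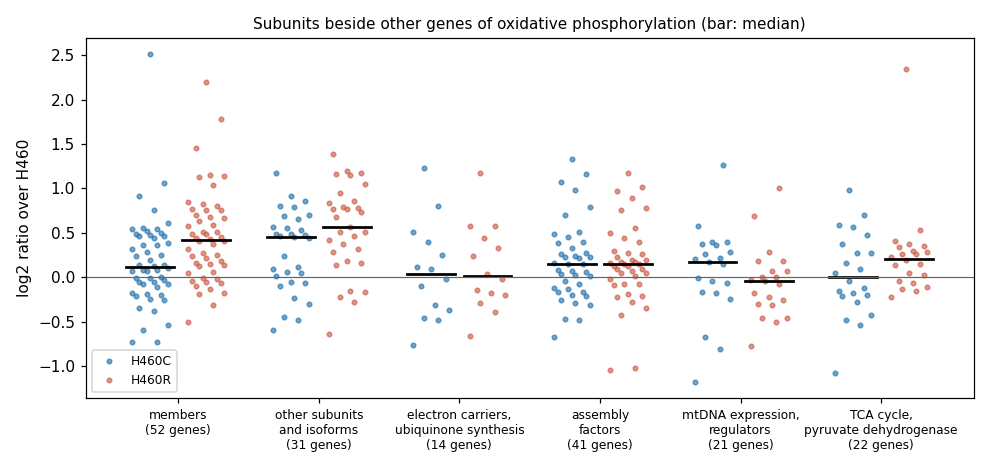
Log2 ratio over H460 (vertical axis) of the 52 subunit genes and of 5 other lists, with 1 point per gene, H460C in blue and H460R in red, and a bar at the median. The medians of H460R are highest in the other subunits (0.57) and in the 52 genes (0.42), and lowest in the genes of mitochondrial DNA expression (-0.04).

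Markers of cell types were read as a check of the labels. All 5 epithelial markers passed the filter. KRT8 had 0.12 in H460C and -0.13 in H460R, and neither was called. In H460C 2 of the 5 were higher and 1 was lower, and in H460R 2 were lower. EPCAM was higher in H460C (1.36) and not called in H460R (-0.09), and KRT18 was lower in H460R (-0.83). Of the other markers, 4 of 6 for fibroblasts, 2 of 3 for endothelial cells and 2 of 5 for leukocytes passed, and PTPRC was not well above background on any array. Of the 4 fibroblast markers, 1 was higher and 2 were lower in H460C, and all 4 were lower in H460R. Of the endothelial markers 1 was higher and 1 lower in H460C and 1 lower in H460R, and of the leukocyte markers 1 was lower in each population. The higher endothelial marker, PECAM1, passed the filter only through H460C, and the lower one, KDR, only through H460. The other cells were not well above background on all or most of their arrays, so these ratios are only bounds. LUM, a fibroblast marker, was lower in H460C (-3.23, Rank Products FDR 0.00498). The part of these differences in the subunit results was not tested.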

How the data were processed

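Per the labels and the study's methods, RNA was labeled with both dyes and hybridized with the dyes swapped, and the authors used the Feature Extraction program (10.1.1.1) to read the scans. Its deposited median intensity of each spot and of the local background, not normalized, gave the main values. Its deposited log10 ratio, and the log2 ratios that the authors deposited as a processed table, whose background correction and normalization are not given in the sources used here, served as alternatives. Limma is named in the submitters' processing notes. The log10 ratios of 1 array had lost their decimal points and were divided by 10 to the power of 9.

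Background was corrected with normexp (limma 3.58.1, R 4.3.3, offset 50). Control and outlier spots were left out, and ratios were normalized by loess, turned to studied cells over H460 and averaged per dye-swap pair. The filter on dim probes asked for a signal well above background, in a share of at least 0.5 of the spots, on all arrays of H460C, of H460R or of H460. It left 26046 of 41000 probes, and 26014 with ratios in every replicate were tested. Probes were named through RefSeq accessions (GRCh38.p14), which gave 23958 probes a symbol. Each gene was represented by the brightest of its unsaturated probes, or else by the brightest probe. Limma had 3 ratios, with H460C as 1 sample assumed to vary like H460R (1 residual and 6.28 prior degrees of freedom), two-sided. Rank Products p-values came from all possible products of 2 ranks, in each direction. P-values were adjusted by Benjamini-Hochberg over all probes tested. The number of arrays limits the precision.

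Members and lists were chosen with earlier results of these data known. The rule for named genes took those called by Rank Products, the extremes of each population, complex and list, the largest differences, members with disagreeing or saturated probes, and NDUFA4 with its paralogs. Other genes named are examples chosen after their values were seen. Alternatives changed the background correction, normalization, filter, probe, dyes, replicates and test.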

Additional observations from a re-analysis of the deposited data

Results flagged for a closer look

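Groups of 2 samples were not screened for outlying samples. The differences between H460C and H460R that passed the limma test (adjusted p under 0.05) are given here for follow-up, as log2 H460C minus H460R. There were 25 genes higher in H460R and 4 higher in H460C. NDUFV1, NDUFA5, NDUFC1, UQCRB and COX6C lacked a ratio on some arrays, so their differences are not balanced for the dye.

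In complex I the differences were -1.10 for NDUFV1, -0.72 for NDUFB5, -0.72 for NDUFA2, -0.70 for NDUFA1, -0.69 for NDUFS8, -0.64 for NDUFA5, -0.50 for NDUFB3, -0.49 for NDUFS7, -0.46 for NDUFB6, -0.41 for NDUFA10, -0.37 for NDUFS1, -0.36 for NDUFB7 and -0.28 for NDUFV2, and 0.37 for NDUFC1. In complexes II and III they were -0.45 for SDHA, -0.65 for UQCRQ and -0.51 for UQCRB. In complex IV they were -1.24 for COX6C, -0.68 for COX7C, -0.66 for COX7B, -0.66 for COX7A2, -0.41 for COX4I1, -0.40 for COX8A and -0.37 for COX6B1, and 0.31 for COXFA4L3. In complex V they were -0.49 for ATP5F1A and -0.44 for ATP5F1B, and 0.31 for ATP5F1C and 0.31 for ATP5MC3, the last at a dim probe that its bright probe did not bear out.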

How the results depend on the processing

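Over the 52 genes and all alternatives, 775 values of H460C, 814 of H460R and 806 of their difference kept direction and side of the threshold. The sign was not kept in 39, 28 and 18 values, and in 3, 10 and 1 of these the value was called by limma in the main setting or in the alternative. Setting aside single-dye arrays, left-out replicates and a minimum ratio, 17 of 31 limma calls in H460C, 31 of 41 in H460R and 8 of 29 between them were kept in every alternative. Where a value changed, the cause was not tested.

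The software's ratio gave 0 Rank Products calls in either population, 4 genes lower in H460C by limma, 1 gene higher in H460C than in H460R, 14 higher in H460R than in H460C, and an H460C median of 0.10. A normexp offset of 0 gave 0 Rank Products calls in H460C, 1 in H460R, and 2 genes higher in H460C than in H460R. Median centering gave 1 Rank Products call in H460R, 1 lower gene by limma in each population, 1 gene higher in H460C than in H460R and 9 the other way, and medians of 0.28 in H460C and 0.49 in H460R. The medians of all probes were then 0.081 and 0.064, against 0.0029 and 0.0096 in the main setting. The authors' table gave 2 genes higher in H460C than in H460R and medians of 0.016 and 0.37. The stricter filter gave 2 lower genes in H460R and an H460C median of 0.13. The Cy5 arrays alone gave 1 Rank Products call in H460R, 1 gene higher in H460C than in H460R and 13 the other way, and an H460C median of 0.22. COX6C could not be tested there. The Cy3 arrays alone gave 1 Rank Products call in H460R, 2 genes higher in H460C than in H460R, and an H460C median of 0.16. Rank Products on 4 arrays called 6 genes higher in H460R, COX7A2, COX7B, COXFA4L3, NDUFA1, NDUFB3 and UQCRQ, and could not test COX6C. With outlier spots kept, chosen after seeing the data, it called 1. A minimum log2 ratio of 0.5 in limma left 3 genes higher and 0 lower in H460C, and 14 higher and 0 lower in H460R.

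Leaving out 1 replicate gave 21 to 26 genes higher and 8 to 11 lower in H460C, 33 to 37 higher and 2 to 6 lower in H460R (2 without H460R replicate 1), 3 to 6 higher in H460C than in H460R and 25 to 28 the other way. The medians were 0.10 to 0.12 in H460C and 0.39 to 0.43 in H460R. Rank Products could not be run for a population with a replicate left out. With a replicate block and H460C as 2 samples, 29 genes were higher in H460R and 5 in H460C, against 28 and 4 without the block. Same-numbered replicates correlated at 0.206 over 26014 probes, but with only 2 numbers they were not taken as pairs.

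Medians that changed sign were those of complex II in H460C (-0.005 in the authors' table, -0.070 with Cy5), complex III in H460C (-0.0014 with outlier spots kept), complex V in H460C (0.048 with median centering, 0.065 with the stricter filter, 0.065 with the brightest probe, 0.19 with Cy5), complex II in H460R (0.052 with median centering, 0.057 with Cy5, 0.0097 with the mean over probes, 0.017 without H460R replicate 1) and complex V in H460R (-0.042 with Cy3). Among values with a call on either side, the H460C ratio changed sign for NDUFB7 (0.40) and NDUFS8 (0.37) with Cy3, and for ATP5F1A (0.070) with Cy5. The H460R ratio did so with Cy3 for NDUFA8 (-0.23), NDUFS4 (-0.11), CYC1 (0.28), UQCRC1 (0.41), UQCRH (-0.017) and ATP5F1A (-0.0555), with Cy5 for NDUFB7 (-0.20), NDUFV1 (-0.10) and SDHB (0.052), and with median centering for NDUFS3 (0.13). The difference of UQCRB was 0.14 with median centering.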
